A study of Rattus norvegicus with 6 samples.

Results

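The 3 D-type cyclins and the 2 kinases they activate were compared between quiescent and replicating rat β-cells. The members were the genes whose name on the array is *Ccnd1*, *Ccnd2*, *Ccnd3*, *Cdk4* or *Cdk6*. All 5 were present, with 8 of the 45598 probes that are not controls, and 17960 genes of the array had a name in the RefSeq table. Islets of young adult male Wistar rats were isolated and cultured overnight at basal glucose with EdU, a thymidine analogue that marks cells in S phase. They were then dispersed, fixed and sorted. β-cells were gated by size, granularity and Newport Green, a zinc-binding dye, so that each of 3 islet preparations, pooled from 4 rats each, gave 1 EdU-positive (replicating) and 1 EdU-negative (quiescent) sample. Both groups thus shared the culture, the EdU exposure, the fixation and the labelling, and were separated by EdU incorporation. The study also collected far fewer replicating than quiescent β-cells per pancreas, and less RNA from them before amplification. This difference in input goes with the group, and its part in the ratios was not tested. Because the quiescent gate holds every β-cell that did not copy its DNA overnight, it is not a gate for cells in G0. The replicating gate holds β-cells that copied DNA during the culture, whatever phase they had reached when sorted.

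D-type cyclins bind CDK4 or CDK6 in G1, and the complex phosphorylates the retinoblastoma protein RB. This releases E2F factors, which switch on genes of S phase entry, cyclin E among them. INK4 inhibitors block CDK4 and CDK6, and CIP/KIP inhibitors act mainly on CDK2. In rodent β-cells cyclin D2 and CDK4 are known to be needed for postnatal growth of the β-cell mass. Cyclin D transcripts respond to mitogens, and the proteins are also controlled by turnover.

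The array measures these genes with probes of 60 bases at different places on the transcripts, and *Ccnd1* and *Cdk6* have several. The probes that gave the values of *Ccnd1*, *Ccnd2* and *Cdk4* are printed as on the array, 5′ to 3′, because they fix which stretch of each transcript was read. No base is marked, since no part of a probe is singled out by the measurement.
*Ccnd1* probe: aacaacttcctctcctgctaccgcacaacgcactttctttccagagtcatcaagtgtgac
*Ccnd2* probe: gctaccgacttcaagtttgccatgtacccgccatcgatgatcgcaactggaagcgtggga
*Cdk4* probe: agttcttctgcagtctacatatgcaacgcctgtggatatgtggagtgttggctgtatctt
The *Ccnd1* probe starts at base 785 of its transcript and lies at chr1:205361630-205361689 of the rat build rn4, on the minus strand. A second *Ccnd1* probe starts at base 3431 and lies at chr1:205357553-205357612, further towards the 3′ end. The *Ccnd2* probe, at base 561, is placed at chr4:163535032-163541856 on the minus strand. That span of 6825 bases is longer than the 60 bases of the probe, as for a probe that crosses an intron. The *Cdk4* probe, at base 736, lies at chr7:67017293-67017352 on the plus strand. The single *Ccnd3* probe starts at base 1541 and the files give it no position. The 3 *Cdk6* probes start at bases 1241, 3184 and 5087 and lie on chromosome 4, minus strand, at 27362858-27362917, 27361379-27361438 and 27359476-27359535. Coding and untranslated parts are not given in the files, so the probes are not assigned to them here.

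On the 6 arrays between 80.8% and 98.5% of the probes were well above background, and no spot was saturated. Precision is limited by how few arrays there are. The quiescent array of preparation 2 stood apart. Its Pearson's r over all probes was between 0.654 and 0.83 with the other 5 arrays, against 0.867 to 0.986 among those 5. Quiescent array 1 stood apart to a lesser degree. Its r was 0.867 to 0.887 with quiescent array 3 and the replicating arrays, which had 0.943 to 0.986 among themselves. Quiescent array 2 also had 1583 spots marked as outliers, where the others had 252 to 299. The members are therefore given for every preparation, and a ratio is also given without preparation 2 where its call or sign turns on it. The sort could be read in the proliferation genes *Mki67*, *Top2a*, *Cdk1* and *Ccnb1*, which stood above the quiescent cells in all 3 preparations, with a median log2 ratio of 3.57. All 11 β-cell markers on the array were well above background on every array. So were 14898 of all 17960 genes, and the count does not set these markers apart. In sorted pools, fewer cells of a type and less RNA per cell cannot be told apart.

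None of the 5 genes passed a test between replicating and quiescent β-cells. Values are the deposited log2 values after quantile normalization, and each log2 ratio is that of replicating to quiescent cells. By limma, blocked on islet preparation, 0 of the 8 probes had an unadjusted p under 0.05, where 9.6% of all probes did. The study selected probes by an unadjusted limma p-value no higher than 0.05 and a change of 1 or more on the log2 scale in either direction. By this selection 0 of the 8 were called, where 4.44% of all probes were called higher and 4.18% lower. The split depends on scaling, since the higher calls were 51.5% of all calls as deposited and 21.4% with 75th percentile scaling. At an adjusted p under 0.05 (Benjamini-Hochberg over all probes), 0 of 45598 probes passed, or 0%. The values of the replicating and quiescent arrays overlapped for all 8 probes. Over all probes with a value on every array, 9.01% lay above and 7.1% below without overlap. 

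**Figure D1:**
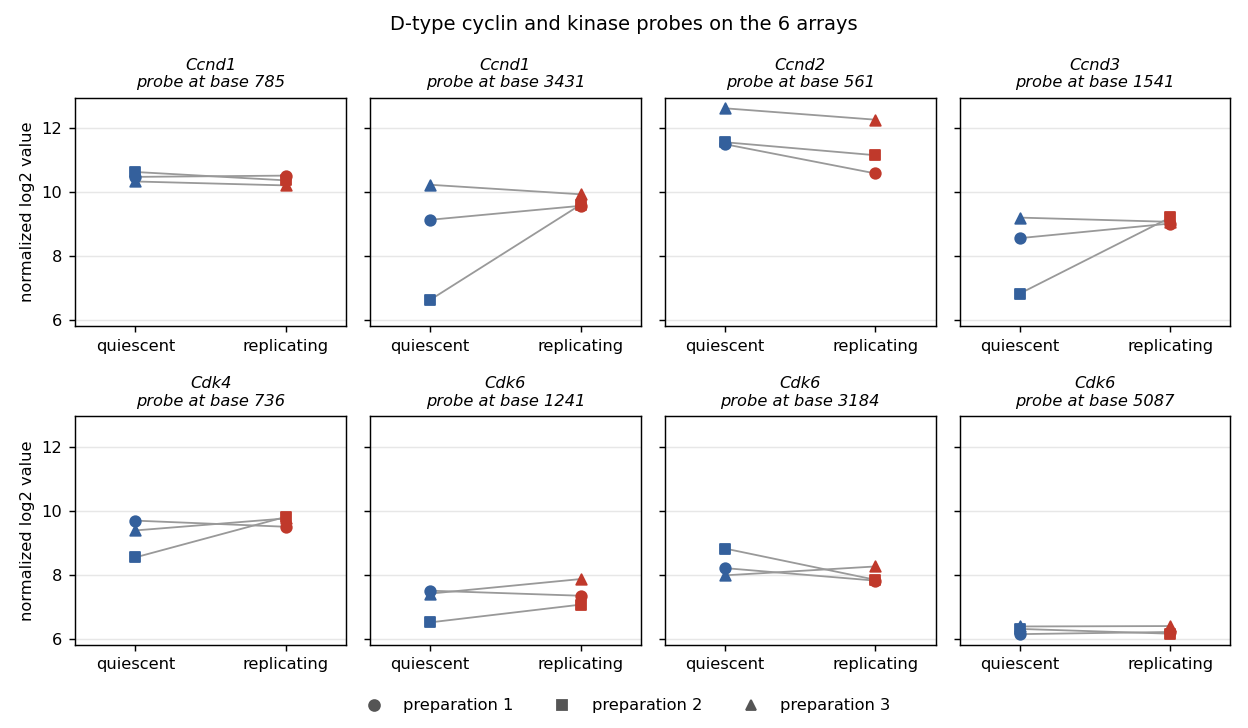
Normalized log2 value (vertical axis) of each of the 8 probes on the 3 quiescent arrays (blue) and the 3 replicating arrays (red); lines join the arrays of a preparation and symbols mark preparations 1 to 3. The *Ccnd1* probe at base 3431 and the *Ccnd3* probe were lowest on quiescent array 2, at 6.64 and 6.84, and the *Ccnd1* probe at base 785 stayed between 10.21 and 10.63 on all 6 arrays.

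Cyclin D1, the D-type cyclin most often studied as a target of mitogens, was read by 2 probes that gave different pictures. The probe at base 785, the brighter of them and the one taken for the gene, read 10.52, 10.37 and 10.21 in the replicating cells of preparations 1, 2 and 3, and 10.48, 10.63 and 10.33 on the quiescent arrays. These 6 values lay close together, and the groups were interleaved. Its 2 spots differed most on quiescent array 2, at 10.32 and 10.94. The log2 ratio was -0.12 (standard error 0.31, 95% interval -0.90 to 0.67; unadjusted p = 0.722, adjusted p = 0.873 in limma). The interval leaves out a doubling as well as a halving of the signal at this probe.

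The *Ccnd1* probe at base 3431 read 9.58, 9.61 and 9.93 on the replicating arrays. On the quiescent arrays it read 9.14, 6.64 and 10.23. The replicating arrays were close together, whereas the quiescent arrays spread around them with the lowest value in preparation 2 and the highest in preparation 3. The log2 ratio was 1.04 (standard error 0.69, unadjusted p = 0.190, adjusted p = 0.513), with 0.44, 2.97 and -0.30 in preparations 1, 2 and 3. Without preparation 2 it was 0.07. This probe is printed 10 times on each array, and the standard deviation over its spots was between 0.0603 and 0.11, so the low value of quiescent array 2 was shared by all 10 spots, which read 6.53 to 6.71 there. Printing error at the array is thus far smaller than the gap between the arrays.

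The position of a probe moved with the array in other genes as well. Over 1250 transcripts with probes at least 1000 bases apart, the value of the last probe minus that of the first had a median of 0.49, 0.35 and 0.41 on the replicating arrays. On the quiescent arrays of preparations 1, 2 and 3 it was 0.40, -0.16 and 0.71. Quiescent array 2 was the lowest and the one array below 0. The spread between transcripts was wide, with quartiles of -1.89 and 1.59 on that array. For *Ccnd1* the same difference was -0.94, -0.76 and -0.28 on the replicating arrays and -1.34, -3.99 and -0.10 on the quiescent arrays, again lowest on quiescent array 2 and highest on quiescent array 3. Among these transcripts *Ccnd1* was at percentile 7.92 on quiescent array 2, against 22.8 to 34.6 on the other arrays. The part that the shift of the medians has in the ratio of the probe at base 3431 was not tested.

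Cyclin D2, the D-type cyclin that β-cells are known to depend on, was the one gene of the 5 with a lower value in the replicating cells of every preparation. The replicating arrays read 10.58, 11.15 and 12.26 and the quiescent arrays 11.50, 11.56 and 12.62 in preparations 1, 2 and 3. Both arrays of preparation 3 were above all arrays of the other preparations, so the spread between preparations exceeded the difference within them. The ratios were -0.91, -0.41 and -0.36. Together they gave -0.56 (standard error 0.32, 95% interval -1.38 to 0.26), or 1.47-fold lower in replicating β-cells, with an unadjusted p of 0.141 and an adjusted p of 0.492. With the processed signal the ratio was -0.49 and the median of all probes -0.71, so *Ccnd2* was then above that median. Among all genes 18.2% had a ratio below 0 in all 3 preparations. *Ccnd2* did not rest on quiescent array 2, since without preparation 2 the ratio was -0.63 (unadjusted p = 0.166).

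Cyclin D3 had the largest ratio among the probes taken for the genes. Its values were 9.02, 9.21 and 9.08 on the replicating arrays and 8.57, 6.84 and 9.21 on the quiescent arrays. The replicating arrays were close together and quiescent array 2 was far below the rest, as for the *Ccnd1* probe at base 3431. The log2 ratio was 0.90 (standard error 0.56, 95% interval -0.53 to 2.32; unadjusted p = 0.167, adjusted p = 0.503). In preparations 1, 2 and 3 it was 0.46, 2.37 and -0.13, and without preparation 2 it was 0.16.

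*Cdk4*, which encodes the kinase partner of D-type cyclins in β-cells, read 9.50, 9.81 and 9.76 on the replicating and 9.69, 8.54 and 9.38 on the quiescent arrays. The 2 spots of its probe differed by at most 0.15 on any array. Quiescent array 2 was again the lowest of the 6, about 0.8 below the next. The ratio was 0.48 (standard error 0.40, 95% interval -0.54 to 1.50; unadjusted p = 0.281, adjusted p = 0.576), with -0.19, 1.26 and 0.37 in the 3 preparations. It was 0.09 without preparation 2.

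*Cdk6*, whose product can replace CDK4 in many cell types, was read by 3 probes that had no common direction. The probe at base 3184, the brightest, read 7.82, 7.85 and 8.26 on the replicating and 8.21, 8.82 and 7.98 on the quiescent arrays. Quiescent array 2 was here the highest array. The log2 ratio was -0.36 (standard error 0.38, 95% interval -1.32 to 0.60; unadjusted p = 0.379, adjusted p = 0.648), with -0.39, -0.97 and 0.28 in preparations 1, 2 and 3, and -0.06 without preparation 2. The probe at base 1241 read 7.35, 7.07 and 7.87 on the replicating and 7.51, 6.52 and 7.41 on the quiescent arrays. Its ratio was 0.28 (standard error 0.33, unadjusted p = 0.431). The probe at base 5087 lay between 6.15 and 6.40 on all arrays and was well above background on 1 of 3 replicating and 2 of 3 quiescent arrays, so it gives little more than the background.

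**Figure D2:**
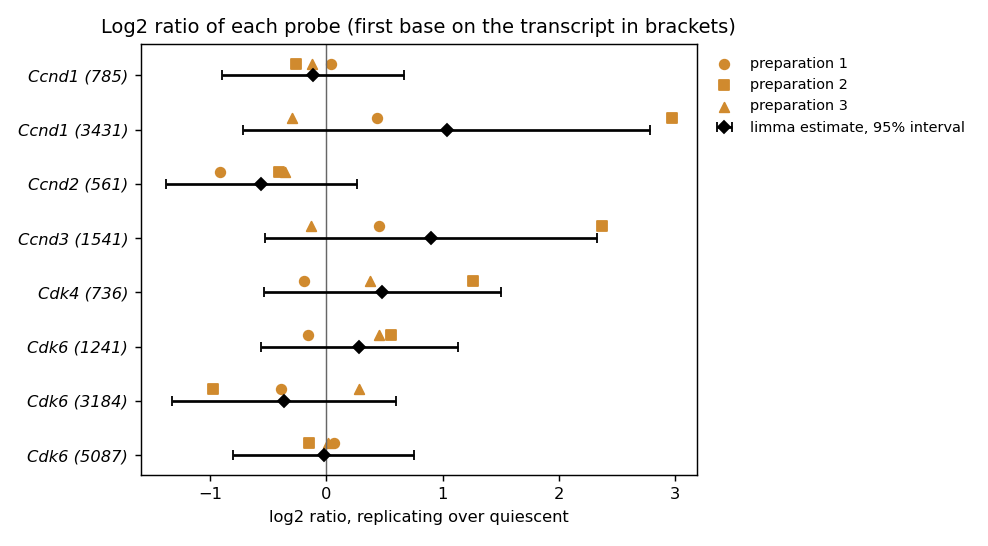
Log2 ratio of replicating over quiescent β-cells (horizontal axis) for the 8 probes, named by gene and first base on the transcript. Diamonds with bars are the limma estimates with 95% intervals, all of which include 0, and the orange symbols are the ratios in preparations 1 to 3; for the *Ccnd1* probe at base 3431 and for *Ccnd3*, preparation 2 lies at 2.97 and 2.37, far to the right of the other preparations.

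At the brightest probe of each gene, the order of the ratios was *Ccnd3*, *Cdk4*, *Ccnd1*, *Cdk6* and *Ccnd2*, from 0.90 to -0.56. It depends on that choice, since the other *Ccnd1* probe had 1.04 and the other *Cdk6* probes 0.28 and -0.02. Neighbours in this order did not differ beyond their spread. *Ccnd3* exceeded *Cdk4* by 0.42 ± 0.83 (SD over 3 preparations), and *Ccnd1* exceeded *Cdk6* by 0.25 ± 0.58. *Ccnd1* minus *Cdk4* was -0.60 ± 0.88, and *Ccnd2* minus *Cdk6* was -0.19 ± 0.66. Of the 10 pairs, 4 kept 1 order in every preparation. The ratio of *Ccnd2* was below that of *Cdk4*, with differences of -0.72, -1.67 and -0.73, and below that of *Ccnd3*, with -1.37, -2.78 and -0.22. That of *Ccnd1* was above *Ccnd2* by 0.95, 0.14 and 0.23, and that of *Cdk4* above *Cdk6* by 0.20, 2.24 and 0.10. An exact two-sided sign test on 3 preparations cannot give a p under 0.25, and no test of these differences was run. Across the 6 arrays *Ccnd3* and *Cdk4* had an r of 0.893, but over the 5 arrays without quiescent array 2 it was -0.171. Their likeness thus lay in that array.

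The genes with the most similar profile were sought among 14653 other genes that were well above background on all 6 arrays, by Pearson's r over these arrays. For *Ccnd3* they included *Ywhag* and *Klf10*, with an r of 0.9997 and 0.999. For *Cdk4* they were *Slc25a13*, *Tsen34* and *Dlx4*, from 0.998 to 0.992, and for *Cdk6* *Prox2*, *Gga2* and *Lamtor4*, from 0.997 to 0.982. For *Ccnd2* they were *Ndufb9*, *Rinl* and *Slc35b1* at 0.970 to 0.960, and for *Ccnd1* *Max*, *Pde3a* and *Car15* at 0.967 to 0.951. Without quiescent array 2 the r of these genes lay between 0.915 and 0.996. These values describe 6 arrays that share a slide and a normalization, and among so many genes high values are common.

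The genes around the cyclin D kinases, from regulators of the cyclins to E2F targets, were described from lists of 75 genes on the array. By the study's selection 25 of them (33.3%) were called higher in replicating cells and 0 lower, against 5.63% higher and 2.76% lower among all 17960 genes. The median log2 ratio of the 75 genes was 0.87, that of all genes -0.001. None had an adjusted p under 0.05 in limma. Without preparation 1 the number of higher genes was 14, and without preparations 2 and 3 it was 26 and 29. Of the 25 genes, 14, 21 and 23 kept the call without preparations 1, 2 and 3, and all 25 kept their direction each time. The 4 that lost it without preparation 2 were *Rb1* (0.96), *Tfdp2* (1.02, unadjusted p = 0.0784 in limma), *Mcm2* (0.87) and *Mcm4* (0.91).

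The RB family, substrates of the cyclin D kinases, was higher for 2 of its 3 genes. *Rb1* read 10.44, 9.95 and 10.08 on the replicating and 8.77, 7.46 and 9.83 on the quiescent arrays. Its replicating arrays were all above its quiescent arrays, narrowly so for quiescent array 3, and the log2 ratio was 1.47 (standard error 0.51, unadjusted p = 0.0327, adjusted p = 0.475), but 0.96 without preparation 2. *Rbl1*, which encodes the RB relative p107, had a ratio of 1.90, with 1.88, 2.90 and 0.92 in preparations 1, 2 and 3. *Rbl2*, which encodes p130, had 0.13, and 1.64, -1.70 and 0.44 in the preparations.

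Of 9 E2F and DP genes, whose products bind DNA as pairs, 3 were higher. *E2f7*, a repressor among the E2F factors, had a ratio of 4.17 (standard error 0.59, unadjusted p = 0.000749, adjusted p = 0.227). Its other probe, less bright but well above background on all 6 arrays, had 0.01. *E2f2*, an activator, had 2.32, made up of 1.93, 3.26 and 1.76, and *Tfdp2* had 1.21. The other *Tfdp2* probe, less bright but well above background on all 6 arrays, had 0.86 (unadjusted p = 0.0528 in limma) and was not called. *E2f1* had 1.26 (unadjusted p = 0.0943) but was below 0 in preparation 2, without which it was 2.11 and passed the selection. Of the 6 genes of cyclins E and A, CDK2 and its phosphatase, 3 were higher: *Ccna2* at 2.71, *Ccne1* at 2.09 and *Ccne2* at 1.26. For *Ccna2*, 2 of the 3 quiescent arrays had a signal well above background. The cyclin E genes were above 0 in all 3 preparations, with *Ccne1* at 2.13, 3.41 and 0.73. *Cdk2* had -0.18, which turned to 0.34 without preparation 2, and *Cdc25a* had 0.22.

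Among 19 E2F targets of S phase entry, 12 were higher and 0 lower, with medians of 1.54, 1.97 and 1.48 in preparations 1, 2 and 3. *Mcm5*, a subunit of the replicative helicase, read 11.30, 11.37 and 11.72 on the replicating and 7.51, 7.96 and 8.06 on the quiescent arrays. The groups were more than 3 log2 units apart in every preparation, and the ratio was 3.62 (standard error 0.31, unadjusted p = 6.6e-05, adjusted p = 0.109). *Rrm2*, a subunit of ribonucleotide reductase, had 4.47, and *Cdc45*, which joins the helicase, had 3.14. *Orc1* had -0.26. *Cdc6*, well above background on 2 of 3 arrays in each group, had -0.13, with 0.61, -1.84 and 0.85 in the preparations and 0.73 without preparation 2.

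**Figure D3:**
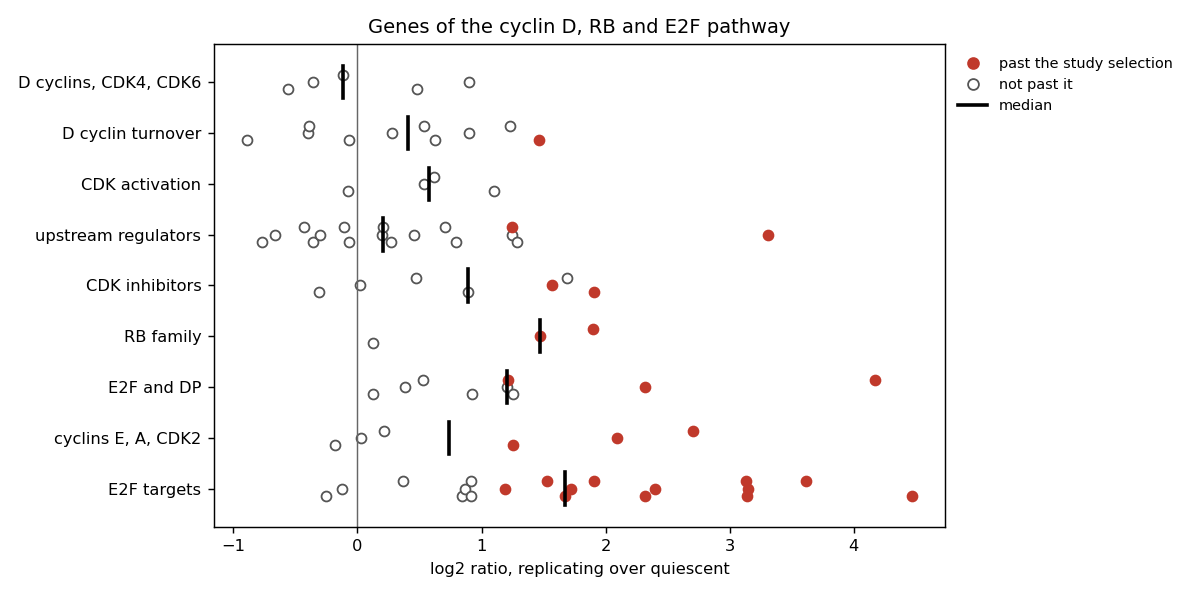
Log2 ratio of replicating over quiescent β-cells (horizontal axis) for each gene of the cyclin D, RB and E2F lists, 1 point per gene at its brightest probe. Red points passed the study's selection, open points did not, and black bars are medians; the 5 D-type cyclin and kinase genes are in the top row with a median of -0.12, and the median of the E2F targets is 1.68.

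Of the 7 inhibitors of these kinases, 2 were higher and 0 lower. *Cdkn2c*, the INK4 inhibitor p18, read 7.50, 7.51 and 8.56 on the replicating and 6.35, 6.02 and 6.50 on the quiescent arrays, without overlap. Its ratio was 1.57 (standard error 0.34, unadjusted p = 0.00555, adjusted p = 0.475). The quiescent values were dim. The lowest probe marked well above background read 6.04, 5.85 and 5.97 on quiescent arrays 1, 2 and 3. *Cdkn1a*, which encodes p21, had 1.91, with 1.32, 3.15 and 1.26 in the 3 preparations, and 3.27 on its other probe. *Cdkn2a*, the locus of p16 and of a second product from another reading frame, had 0.89 (unadjusted p = 0.0359), short of the study's fold, and 1.03 without preparation 2, where it passed. *Cdkn1b*, which encodes p27, had 1.69 (unadjusted p = 0.0739), of which preparation 3 showed 0.14. *Cdkn2b* and *Cdkn1c* had -0.31 and 0.02, and without preparation 2 these turned to 0.36 and -0.23.

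Of 10 genes of cyclin D turnover 1 was higher: *Cryab*, a small heat shock protein that joins an F-box ligase for cyclin D1, at 1.46. It had no value on quiescent array 2, so the fit rests on preparations 1 and 3. *Cul4a*, a cullin of ubiquitin ligases, had -0.89, with -0.80, -0.99 and -0.88 in the 3 preparations (unadjusted p = 0.0315), and was short of the fold. Of the 4 genes of the CDK-activating kinase and the chaperones on the array none was called. *Ccnh*, its cyclin, had 1.10 (unadjusted p = 0.0781). Of 17 upstream regulators 2 were higher, *Foxm1* at 3.31 and *Ezh2* at 1.25. The dimmer probe of *Foxm1*, well above background on 3 of 6 arrays, had 0.46. *Ezh2*, a Polycomb methyltransferase, had 1.47, 1.65 and 0.62 in the preparations. *Myc*, *Foxo1* and *Prlr* had ratios of -0.77, -0.43 and 0.20 and were not called. *Foxo1* had -0.48, -0.42 and -0.39 in preparations 1, 2 and 3. By qPCR the study reported *Foxo1* as significantly lower in replicating β-cells, and *Bmi1* and *Ezh2* as higher. On the array *Bmi1* had 0.27 and was not called. Without preparation 2 *Myc* had -1.05 and was called lower, and *Prlr* turned to -0.35.

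Some markers of other islet cells moved with the groups. The sums below are of linear values, so the brightest genes of a list weigh most in them. These were collagens for the fibroblast markers, *Gcg* for the alpha cell markers and *Ppy* for the PP cell markers. Over the 15 fibroblast and stellate cell markers, of which 14 were well above background on all 6 arrays, the summed normalized signal was 14860 to 42290 on the replicating and 6211 to 8253 on the quiescent arrays. By the study's selection 4 were higher, *Col6a3*, *Col3a1*, *Col1a2* and *Vim*, and 0 lower. The 8 alpha cell markers, 7 of them well above background on every array, summed to 23700 to 91980 and 6692 to 20040. Of these 8, *Gcg* and *Gc* were higher and 5 had a ratio above 0, while *Slc7a2*, *Ttr* and *Irx1* had -0.56, -0.20 and -0.17. The 3 PP cell markers, 2 of them well above background on every array, summed to 4290 to 8388 and 2827 to 3897. *Ppy* was higher, and the other PP markers, *Etv1* and *Sertm1*, had -0.57 and -0.43. For delta, acinar, duct, endothelial and immune markers the ranges of the groups overlapped, with 2 of 4, 1 of 7, 1 of 7, 0 of 8 and 3 of 8 genes higher and 0 lower. The β-cell markers summed to 252500 to 320800 and 155800 to 353100, with *Mafa* lower and none higher. The part of these cells in the pathway ratios was not tested.

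E2F sites were looked for in promoters of the RefSeq table, from 250 bases before to 50 bases after the start in the rat build GRCr8. The 4 sequences TTTCCCGC, TTTGGCGC, TTTCGCGC and TTTGCCGC were searched on both strands, and matches may overlap. At least 1 was found in 2.14% of 33469 promoters. Of the E2F targets 8 of the 15 with a promoter in the table held one (53.3%), of the RB family 2 of 3, of the E2F and DP genes 1 of 5, of the cyclin E and A list 1 of 4 and of the CDK inhibitors 0 of 6. The 15 include *Chaf1a*, which has no probe by name on the array. The targets were listed as genes under E2F control, so their share is a description and no test. For the lists 1 promoter per gene was taken, whereas the share of all promoters counts every entry. Among the targets, *Pcna*, *Tk1*, *Rrm1* and *Cdc45* were higher without a match, and *Cdt1* and *Pola1* had a match and were not called. Without preparation 2 *Pola1* had a ratio of 1.28 and passed the selection. The table holds promoters of *Ccnd3* and *Cdk4*, and neither had a match in this window. Windows near 3 genes that were higher are printed in the direction of the gene, with the match farthest upstream in capitals.
*Rbl1*, chr3:166289361-166289420: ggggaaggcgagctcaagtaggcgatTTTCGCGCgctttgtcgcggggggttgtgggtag
*Mcm5*, chr19:13488574-13488633: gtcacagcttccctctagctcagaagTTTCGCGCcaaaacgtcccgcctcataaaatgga
*Mcm6*, chr13:42404458-42404517: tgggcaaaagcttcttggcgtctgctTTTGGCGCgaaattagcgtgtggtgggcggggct
The match in capitals begins 18 bases before the start of *Rbl1*, 213 before that of *Mcm5* and 139 before that of *Mcm6*. The *Mcm5* and *Mcm6* windows each hold a second match that overlaps it, on the other strand, and *Mcm5* has 1 more, 8 bases before its start. *Rbl1* and *Mcm6* lie on the minus strand. A match is a description of letters and does not show binding.

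**Figure D4:**
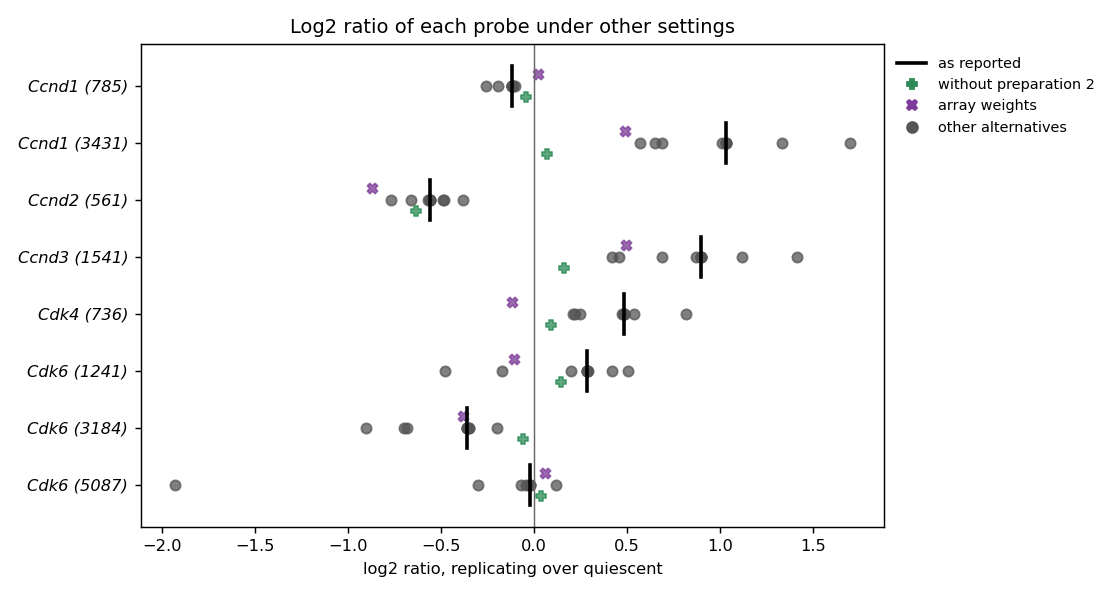
Log2 ratio of replicating over quiescent β-cells (horizontal axis) for the 8 probes under the alternatives in processing, 1 point per alternative. Black bars are the reported values; without preparation 2 (green) all probes but that of *Ccnd2*, at -0.63, lay between -0.06 and 0.16, and the array weights (purple) put *Ccnd2* at -0.87.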

How the data were processed

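Expression was measured on 6 Agilent 1-colour arrays, 1 per group and islet preparation. The authors amplified the RNA, labelled it with Cy3 and read the arrays with Feature Extraction 10.7.3.1, whose deposited spot intensity values are not normalized between arrays. A log2 value for each spot, normexp-corrected and quantile-normalized, was deposited as well and used here. They had a Spearman's rho of 1 with values computed from the intensities at a normexp offset of 50 and differed by at most 0.116. The marks that Feature Extraction set per spot were deposited as other values of 0 or 1 and were used for outliers and for signal well above background.

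Control spots and spots marked as outliers were left out, the spots of a probe were averaged, and limma 3.58.1 in R 4.3.3 was fitted to all 45598 probes blocked on preparation, which follows the paired model of the study. Files were read with the R package data.table (version 1.17.8). The fit was tested on simulated data. A gene was represented by its brightest probe over all arrays. The pairing comes from the labels and methods. After the group means were subtracted, r between the arrays of a pair was 0.0561, 0.242 and 0.258 in preparations 1, 2 and 3. Between arrays of different preparations it was -0.312 to 0.169. Replicating array 1 had a higher r with quiescent array 3 (0.169) than with its own pair. The members and lists were chosen with earlier results of these data known, so their counts are descriptions. List genes were matched by the gene name on the array or, failing that, by RefSeq accession, and 4 (*E2f5*, *Chaf1a*, *Cdk7* and *G6pc2*) were not found. Genes named are the members, list genes that passed the study's selection, some that did not and were chosen after their values were seen, and the 3 genes most similar to each member, of which 1 is not reported here.

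The alternatives were the values from the intensities, the processed signal at the 75th percentile, cyclic loess or 75th percentile scaling after normexp, outlier spots kept, a filter on dim probes, no block, a variance trend, array weights, each preparation left out and the median of the several probes of a gene. The measure of probe position along transcripts and the motif search were chosen after seeing the data. All arrays lay on 1 slide with 1 scan, so no slide block was fitted.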

Additional observations from a re-analysis of the deposited data

How the results depend on the processing

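None of the 5 genes passed the study's selection under any of the 13 alternatives, and *Ccnd2* and *Ccnd3* kept their direction in all of them. Ratios changed sign with array weights for *Ccnd1* (0.0225) and *Cdk4* (-0.12), and with the median of several probes for *Ccnd1* (0.46) and *Cdk6* (0.28). Beside the block, the weights came out at 8.54 for preparation 1 and 0.305 and 0.384 for the others, so that setting is close to preparation 1 alone; it gave *Ccnd2* -0.87 with an adjusted p of 0.00473 in limma, against 0.365 to 0.975 under the other alternatives on its probe. Leaving out each preparation in turn, the ratio ranged from -0.19 to -0.04 for *Ccnd1*, -0.66 to -0.38 for *Ccnd2*, 0.16 to 1.41 for *Ccnd3*, 0.09 to 0.82 for *Cdk4* and -0.68 to -0.06 for *Cdk6*. 

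Of all probes, 0 passed the adjusted p as reported. The count was 719 with 75th percentile scaling, 204 with cyclic loess, 99 with no replicate block, 61 with a variance trend, 24107 with array weights, and 0 to 84 leaving out preparations. No call on the members changed with the block left out. By the study's selection 3928 probes passed, 51.5% of them higher, against 7458 with 75th percentile scaling (21.4% higher), 10915 with array weights and 581 to 10745 leaving out preparations. With the processed signal 17.2% of 3855 were higher, and without a block 68.2% of 2757. The median log2 ratio of all probes was -0.07, but -0.39 with 75th percentile scaling and -0.71 with the processed signal, and ratios under these scalings are to be read against that shift. Of the pathway genes 25 were higher; it was 39 with array weights and 14 to 29 leaving out preparations. None was lower, but 1 was with 75th percentile scaling, 1 with cyclic loess and 0 to 1 leaving out preparations. The cause of these changes was not tested.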
